A study of Drosophila melanogaster with 13 samples.

Results

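The baseline transcript profile of WT Drosophila melanogaster testes was described from the 3 arrays of the strain labelled red[1], e[1] (WT), out of 13 arrays in the series. Whole testes came from adults 0 to 1 day after eclosion, grown at 25 °C, and were dissected free of the seminal vesicles and accessory glands. Total RNA was labelled with a 3' IVT kit, which copies transcripts from their 3' ends, and hybridised to Affymetrix Drosophila 2 arrays. The strain is labelled wild type beside the meiotic arrest mutants of the series but carries the marker mutations red[1] and e[1], and its replicates are called biological without further detail. A gene was taken from probe sets paired with exactly 1 gene symbol, with the probe set of the highest mean standing for the gene, which gave 11981 genes from 13646 of 18952 probe sets. No mutant array entered any value below, and all counts are descriptions without a test.

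A Drosophila testis is a tube in which germline stem cells at the tip, next to somatic hub cells, give rise to spermatogonia enclosed by cyst cells. Spermatogonia become spermatocytes, which transcribe most of the genes used later because transcription largely stops at meiosis, and many of these mRNAs are stored and translated in spermatids. Spermatids then build a long flagellum with a giant mitochondrial derivative, replace histones by protamine-like proteins and are separated from each other by individualization. Many housekeeping complexes have testis paralogs, gene copies with expression centred on the male germline, often made by retroposition from the X to an autosome.

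The 3 arrays were alike across genes, with Pearson's r of 0.98 between replicates 1 and 2, 0.99 between replicates 1 and 3 and 0.98 between replicates 2 and 3. Each array had 30.6% to 31.4% of its probe sets at the floor of the deposited scale, a log2 value of 2.10. Genes at 12 or more numbered 1225, 1155 and 1227 in replicates 1, 2 and 3, and genes above 4 numbered 8033, 7894 and 7970. Replicate 2 stood apart in accessory gland genes, whose median in the 3 arrays was 10.72, 13.50 and 9.25 over 23 measured members. The control probe sets read more at the 3' than at the 5' end of actin by 0.94 to 1.04, of GAPDH by 1.08 to 1.29 and of eIF4a by 2.27 to 2.79 on the log2 scale. A second GAPDH control set had a wider gap. Its 3' probe sets read 11.02, 10.64 and 10.54, and 9.41, 9.21 and 9.30, against 6.64, 6.24 and 6.97 at the 5' end.

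Of the 11981 genes, 1189 (9.92%) had a mean log2 value of 12 or more and are called abundant here. Detection was set at a log2 value above 4, which 8005 genes (66.8%) passed by their mean and 3976 (33.2%) did not. Each probe set binds its transcript with its own affinity, so these bands sort readings and do not rank transcript amounts between genes. Without replicate 2, 1226 genes were at 12 or more, and 1171 of them were also in the full set. Of the abundant genes, 1040 were at 12 or more in every array. Of all genes, 7633 were above 4 in all 3 arrays, 325 in only 2, 348 in only 1 and 3675 in none, and 1382 lay within 0.01 of the floor in all 3. The median SD between arrays was 0.41 for genes with means of 4 to 8, 0.28 at 8 to 10, 0.21 at 10 to 12, 0.16 at 12 to 14 and 0.13 at 14 or more, so abundant genes were also the most evenly measured of the detected ones.

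**Figure D1:**
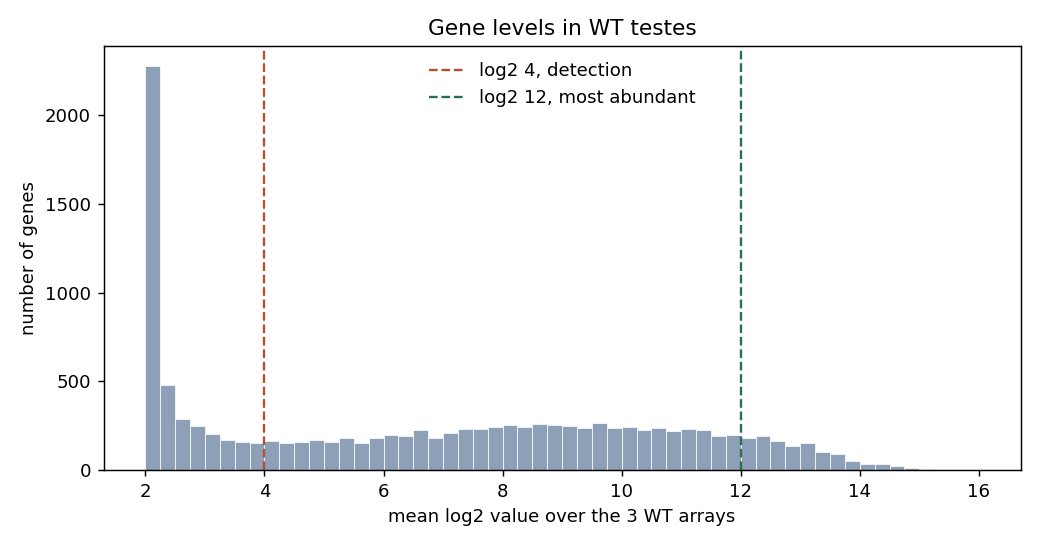
Number of genes (y axis) by mean log2 value over the 3 WT arrays (x axis, bins of equal width), with dashed lines at the detection level of 4 and the abundance level of 12. The distribution has a spike at the floor, to which most of the 3976 undetected genes are near, and a broad hump from 6 to 12 with 1189 genes to the right of the upper line.

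Genes just inside and just outside these lines had nearly the same readings. Rtnl2, Strip and CG2652 averaged 12.00 and counted as abundant, while Tob and eIF5 at 11.99 and ND-ASHI at just under 12.00 did not. At the lower line, Gart, CG13869 and l(1)G0020 averaged 4.00 and counted as detected, while olf186-M and CG34347 at 3.99 and CG2938 at just under 4.00 did not.

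The uppermost readings belonged mostly to small genes without a functional name. CG17376 read 15.54, 15.53 and 15.60 in the 3 arrays, and its mean was 15.56 ± 0.04 (SD, n = 3). CG10252, CG15219 and CG18628 averaged 15.47, 15.41 and 15.27, and the noncoding lncRNA:CR9284 averaged 15.27 ± 0.08. Of 14 genes at 15 or more, 12 carried only a CG number, the exceptions being lncRNA:CR9284 and Mst77F. In the whole band, 649 of 1189 abundant genes (54.6%) had only a CG or CR number for a symbol, against 5219 of all 11981 genes (43.6%). The share was 39.8% among the 6816 detected genes under 12 and 46.8% among the undetected. Abundant genes spanned a median of 1462.5 bases from start to end, introns included, against 2264.5 bases over all genes, and the 120 genes at 14 or more spanned 1155 bases.

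Named genes at the top of the range covered sperm structure, RNA handling and protein quality. RpL41, a very small ribosomal protein, averaged 14.96 ± 0.12, and exu, known for placing bicoid RNA in the oocyte and also needed in spermatogenesis, averaged 14.93 ± 0.03. Ubi-p63E, a polyubiquitin gene and one of the genes mutated elsewhere in the series, read 14.75, 14.65 and 14.90 in the 3 arrays. TrxT, a testis thioredoxin on the X, averaged 14.73 ± 0.17. These genes were high in every WT array. Also at 14 or more were Pen, an importin alpha at 14.48, Syp, an RNA-binding protein at 14.56, Hsc70-4, a constitutive chaperone at 14.48, Pof, which coats chromosome 4 in flies, at 14.39, and gdrd, a young gene needed for spermatid elongation, at 14.10.

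All 9 sperm chromatin genes measured were abundant, against 9.92% of all genes, and their median was 14.07, against 6.88 over all genes. Mst77F, a linker histone-like protein of the sperm nucleus, read 15.01, 14.99 and 15.10. The protamine ProtA read 14.66, 14.36 and 14.69, and its near-copy ProtB read 13.56, 13.07 and 13.54. The arrays lay close together for all 3 genes. Tpl94D, a transition protein present only while histones are exchanged, averaged 13.40 ± 0.08. The HMG-box genes tHMG1 and tHMG2, also of that transition, averaged 14.30 and 14.07, and Prtl99C, a protamine-like protein that affects sperm head length, averaged 12.80 ± 0.13.

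Mst and don juan genes encode proteins of the sperm tail and its mitochondria. Of 15 measured, 11 (73.3%) were abundant and 14 (93.3%) were detected, against 9.92% and 66.8% of all genes. Mst87F, a cysteine-rich and glycine-rich tail protein held untranslated until spermatids elongate, read 14.91, 14.83 and 14.93. Its relatives Mst84Da, Mst84Db, Mst84Dc and Mst84Dd averaged 14.16, 14.92, 14.53 and 13.90, and Mst98Ca and Mst98Cb averaged 14.86 and 14.21. These relatives are similar to each other, and how far their probe sets share signal was not tested. The janus cluster genes janB and ocn averaged 14.27 and 14.75. The members outside the band were Mst36Fa at 11.53, the spermatid mitofusin fzo at 10.82 and dj itself at 9.63, and Mst36Fb was at the floor in replicates 1 and 2 and at 2.18 in replicate 3.

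Sperm leucyl aminopeptidases, which make up much of the sperm proteome, were abundant in all 4 members measured. S-Lap7 read 14.98, 14.81 and 15.03, S-Lap2 averaged 14.55 ± 0.14, S-Lap8 14.34 ± 0.19 and S-Lap5 12.75 ± 0.21. The other 4 members of that list had no probe set of 1 symbol and were not analysed here.

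The axoneme, the microtubule core of the flagellum, was represented by a mixed set. The testis tubulin betaTub85D, which serves the meiotic spindle and the sperm tail, read 14.72, 14.62 and 14.72, and alphaTub85E averaged 12.14 ± 0.22. The maternal tubulins alphaTub67C and gammaTub37C averaged 4.12 and 2.82, and alphaTub84D averaged 2.21. Whether alphaTub85E serves the axoneme was not tested. Of 8 tubulins measured, out of 10 listed, 2 (25%) were abundant and 6 (75%) were detected, against 9.92% and 66.8% of all genes. The undetected ones were gammaTub37C and alphaTub84D. Tektin-A and Tektin-C, filament proteins of the axoneme wall, averaged 13.63 and 13.11. All 4 radial spoke genes measured (Rsph1, Rsph3, Rsph4a, Rsph9) were abundant at 12.54 to 12.89. Of 11 genes listed as axonemal dyneins off the Y, 3 (27.3%) were abundant, against 9.92% of all genes. All 3 were light chains: robl62A at 14.15, Dlc90F at 13.01 and robl37BC at 12.10. Whether each light chain serves the axoneme or cytoplasmic dynein was not tested. The heavy chains were lower and uneven, with Dhc36C at 10.78, Dhc16F at 9.94 and Dhc93AB near the floor at 2.14. Heavy chain transcripts are very long and the label is made from the 3' end, and whether that lowers their readings was not tested. Among tubulin ligase-like genes, which add amino acids to tubulin tails, 6 of 11 (54.5%) were abundant, against 9.92% of all genes. TTLL4B at 13.71 and TTLL6A at 13.44 led them, and TTLL3A and TTLL4A were undetected.

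Genes transcribed after meiosis, an exception to the early shutdown, were also high. The RNAs of comet and cup genes gather at the tail ends of spermatids. Of 15 measured, 9 (60%) were abundant and 15 (100%) were detected, against 9.92% and 66.8% of all genes, and their median was 12.38. The cup gene w-cup read 13.75, 14.27 and 14.09, and the comet genes schuy and hale averaged 13.27 and 12.62. The X-linked p-cup and r-cup stayed under 12 in every array, at means of 10.87 and 11.21. The comet gene soti, an inhibitor of the Cul3 ubiquitin ligase during individualization, averaged 9.73 ± 0.15, the lowest of the list. Cul3 itself averaged 13.85 ± 0.19.

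**Figure D2:**
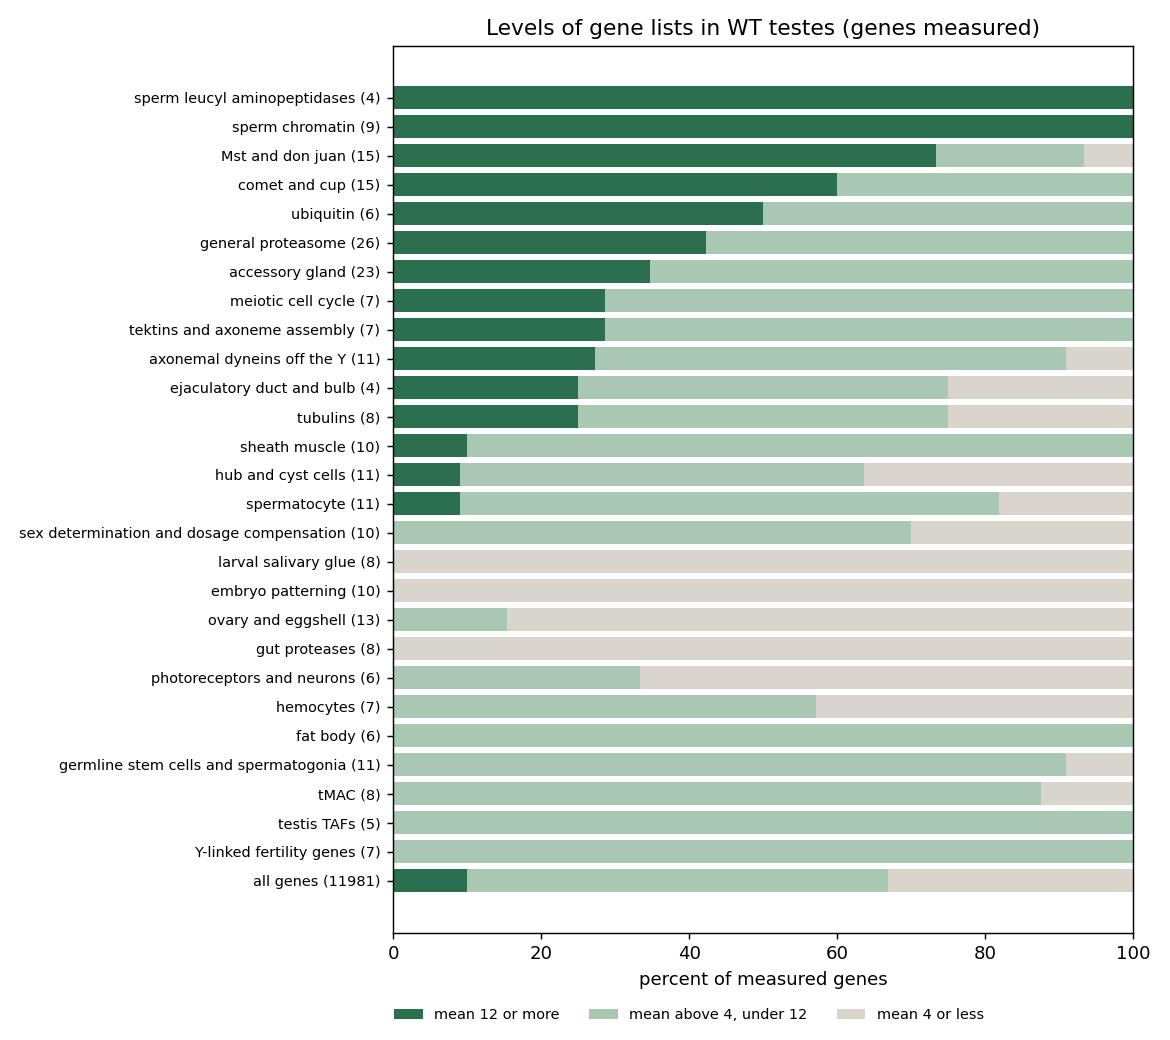
Share of measured genes (x axis, percent) of each list that had a WT mean of 12 or more (dark), above 4 but under 12 (light) or 4 or less (grey), with the number measured in brackets and all genes in the bottom bar. Sperm chromatin and sperm leucyl aminopeptidase genes are dark throughout, and gut protease, embryo patterning and salivary glue genes are grey throughout.

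Transcripts of mitochondria formed the next large group. Of 74 respiratory chain and ATP synthase genes, 39 (52.7%) were abundant and 72 (97.3%) were detected, against 9.92% and 66.8% of all genes, with a median of 12.16. Of 15 subunits of the mitochondrial import machinery, 12 (80.0%) were abundant, among them Tim23, the channel of the inner membrane, at 13.76 ± 0.01 and Tom70, an import receptor, at 13.05 ± 0.05. The mitochondrial ribosome differed: all 69 of its genes were detected and none was abundant, and their median was 9.42 with a range of 6.99 to 11.98. For the cytosolic ribosome, 30 of 41 genes measured (73.2%) were abundant, with a median of 13.04. Chaperones of the Hsp, Hsc and DnaJ families were abundant in 13 of 16 genes. The import and cytosolic ribosome counts include testis paralogs that are counted again below, tomboy20 and RpL22-like among them. Genes were grouped by name, so the respiratory chain and chaperone counts may include such paralogs too. None of these counts is therefore separate from those of the paralogs.

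All ubiquitin genes and general proteasome genes measured were detected, against 66.8% of all genes. Of 6 ubiquitin genes, 3 were abundant, against 9.92% of all genes: Ubi-p63E, and the ribosomal fusions RpS27A at 13.60 and RpL40 at 12.58. Another polyubiquitin gene, the X-linked Ubi-p5E, read 12.15, 11.41 and 12.07, so its arrays lay on both sides of the line. Of 26 general proteasome genes, 11 were abundant and 26 detected, with Rpn6, a lid subunit, at 13.38 and Prosbeta3, a core subunit, at 13.34 among them. The deubiquitinases Usp14 and Usp5 averaged 11.70 and 9.65.

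Testis paralogs were abundant in 41 of 85 measured (48.2%), against 15 of 57 of the general genes they resemble (26.3%). Of all genes 9.92% were abundant, but both sets were picked for known functions, and the choice of paralogs was made for testis expression. Both sets were almost fully detected, at 82 of 85 testis paralogs and 54 of 57 general genes. In 75 pairs with both members measured, only the testis paralog was abundant in 19, both were in 16, only the general gene was in 8 and neither was in 32. Of the 85 testis paralogs 6 were on the X, against 20 of the 57 general genes and 1873 of all 11981 genes. Since the pairs were picked, these counts describe the lists only. Probe sets of near-identical copies can share signal, and how far they did was not tested.

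By number, the respiratory chain had the most paralogs in the upper band, 13 of 17, against 3 of 13 general genes. COX4L, a testis form of a cytochrome oxidase subunit, read 14.16, 13.83 and 13.95, and its general gene COX4 read 11.94, 11.83 and 11.67. UQCR-11L of complex III averaged 12.93 ± 0.39, and its general gene UQCR-11 was undetected at 2.24 ± 0.04. SdhBL, a form of the iron-sulfur subunit of succinate dehydrogenase, averaged 12.61 ± 0.56, and SdhB averaged 8.85 ± 0.19. In each of these pairs the paralog was in the upper band in all 3 arrays and the general gene was not in any. ATPsynbetaL ran the other way at 9.97 ± 0.28, with ATPsynbeta on chromosome 4 at 11.92 ± 0.19. Both means stayed under 12, and ATPsynbeta read 12.07 in replicate 2.

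Mitochondrial import and matrix paralogs were abundant in 7 of 10, against 2 of 5 general genes. The import pore paralog tomboy40 read 13.59, 13.18 and 13.39, and the general Tom40 read 8.93, 8.74 and 9.07. The chaperonin paralogs Hsp60B, Hsp60C and Hsp60D averaged 13.75, 14.45 and 12.95, and Hsp60A averaged 12.67, so all 4 were abundant. The fumarases Fum3 and Fum4 averaged 13.16 and 13.02. For mitofusins, fzo averaged 10.82 ± 0.33 and the general Marf 7.73 ± 0.03.

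All 5 translation initiation paralogs were abundant, against 1 of 2 general genes. The cap-binding eIF4E3 read 14.45, 14.12 and 14.33, eIF4E5 averaged 13.82, eIF4E4 13.64 and eIF4E7 12.12, and the general eIF4E1 averaged 12.59 ± 0.13. The scaffold eIF4G2, needed for meiosis and spermatid differentiation, read 12.56, 13.66 and 13.10, and eIF4G1 read 8.76, 9.93 and 9.45. Both scaffold genes were highest in replicate 2.

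Other groups held fewer abundant paralogs. For the proteasome it was 3 of 13, Prosalpha6T at 13.01, Prosbeta5R1 at 12.98 and Rpn12R at 12.15, against 1 of 9 general genes, Prosalpha3 at 12.68. Prosalpha6T is a testis form of a core subunit, and its general gene Prosalpha6 averaged 10.84 ± 0.14. For the V-ATPase, the proton pump of acidic organelles, it was 2 of 12 paralogs, Vha68-3 at 13.87 and Vha36-2 at 12.43, against 2 of 6 general genes. Ribosomal paralogs were abundant in 2 of 7, RpL10Aa at 13.50 and RpS19b at 12.55, against all 3 general genes measured. The 3 paralogs under detection were Prosbeta4R2 at 2.64, Vha100-4 at the floor and Vha100-5 at 3.77. Outside these complexes, Hex-t2, a testis hexokinase, averaged 13.50 ± 0.02 and Hex-A 9.37 ± 0.34, the dynein light chain Cdlc2 averaged 14.45 ± 0.04 and ctp 11.87 ± 0.49, and Roc1b, a RING subunit of ubiquitin ligases, averaged 13.10 ± 0.02 and Roc1a 4.03 ± 0.18.

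**Figure D3:**
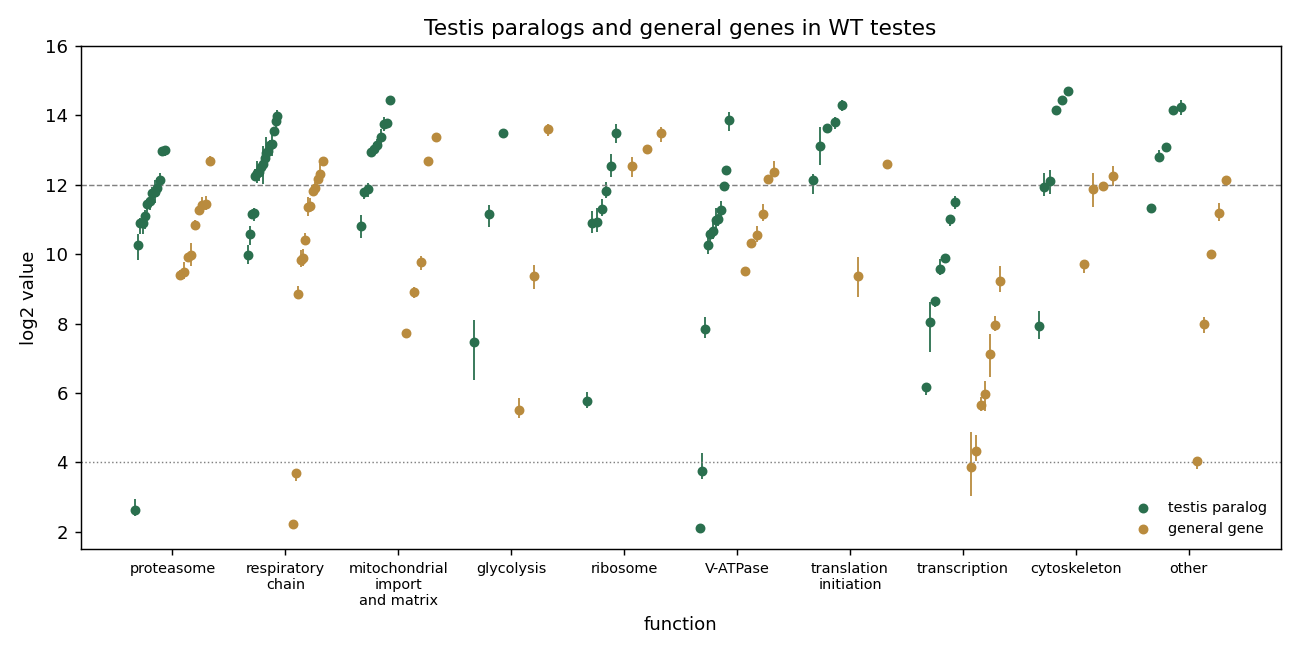
Mean log2 value (y axis) of each testis paralog (green, left) and general gene (ochre, right) by function (x axis), sorted by level within each set, with bars from the lowest to the highest of the 3 WT arrays. The dashed line is 12 and the dotted line 4; 41 of 85 paralogs and 15 of 57 general genes lie at or above the dashed line.

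Of the testis TAF and tMAC genes, which regulate transcription in the spermatocyte, none was abundant, against 9.92% of all genes. Lists this short can hold none at that share. All of them except Rbf2 were detected. The 5 testis TAFs, forms of general TFIID subunits, had a median of 9.89, with means of 11.50 for Taf12L, 9.89 for nht, 9.59 for can and 8.65 for mia, and sa read 11.13, 10.80 and 11.07. Their general counterparts were not abundant either, with Taf8 at 9.23, Taf12 at 7.95, Taf6 at 7.13, Taf4 at 5.66 and Taf5, under detection by its mean, at 3.87. Of 8 genes of the testis meiotic arrest complex (tMAC) and its partners, 7 (87.5%) were detected, against 66.8% of all genes. Of those detected, topi at 11.11 and aly at 6.17 were the highest and the lowest, and Rbf2 was undetected at 3.02. tomb, a DNA-binding subunit, read 8.63, 7.18 and 8.31, and comr read 7.64, 6.53 and 7.65. Both were lowest in replicate 2.

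Meiotic genes spread over the whole range. The translational regulator bol, which promotes entry into the meiotic divisions, read 12.87, 13.35 and 13.22, and the cyclin inhibitor rux averaged 12.55 ± 0.18. The Cdc25 phosphatase twe, whose translation needs bol, averaged 7.31 ± 0.21, and CycB averaged 7.71 ± 0.29. The spermatocyte genes fest and Rbp4 averaged 14.07 and 11.01, and the pairing gene tef, at 4.14, 3.66 and 5.06, crossed the detection line between arrays. The synaptonemal gene c(2)M, which belongs to female meiosis, averaged 2.61 ± 0.24.

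Markers of the earliest germ cells were mostly detected without reaching the upper band. Of 11 genes of germline stem cells and spermatogonia, none was abundant, against 9.92% of all genes, a share at which so short a list can hold none. Of the 11, 10 (90.9%) were detected, against 66.8% of all genes. Their median was 7.49, against 6.88 over all genes. bam, the switch from spermatogonial division to the spermatocyte programme, read 5.32, 4.40 and 5.77, and its partner bgcn averaged 10.65 ± 0.10. piwi, a small-RNA effector of stem cells, averaged 4.02 ± 0.37, at the detection line, and aub averaged 7.67 ± 0.33. vas, the general germline helicase, was under detection at 2.25 ± 0.18 on its probe set of 1 symbol, so this germline marker did not read as present. In whole testes, fewer cells of a type and less RNA per cell cannot be told apart.

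Hub and cyst cells are the somatic cells that support the germline. Of 11 hub and cyst cell genes, 7 (63.6%) were detected, near the 66.8% of all genes, with a median of 5.32, and tj, zfh1, upd1 and ptc, which mark cyst and hub cells, were at 2.11 to 3.10. eya and so, partners in cyst cell differentiation, averaged 8.67 and 8.64, and MtnA, a metallothionein of wide expression, read 14.96, 14.62 and 14.57. All 10 sheath muscle genes were detected, against 66.8% of all genes. Their median was 8.75, with array medians of 8.66, 9.38 and 8.23. The actin gene Act87E averaged 13.53 ± 0.10, and the myosin light chain Mlc2 read 6.17, 7.27 and 4.67. The probe set of Act87E has a suffix that marks possible matches beyond 1 gene, and how far other genes add to its signal was not tested. Of the 10 genes, 9 were highest in replicate 2, the array that was also highest in accessory gland genes, and the exception was Mp20.

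Accessory gland genes encode seminal fluid proteins. All 23 measured were detected by their mean, against 66.8% of all genes, although the glands had been removed. In every array 22 were above 4, and intr, at 2.68, 7.88 and 2.73, passed only in replicate 2. Of the 23 members, 8 (34.8%) were abundant, against 9.92% of all genes. Without replicate 2, 4 were abundant, nearer to that share. Acp98AB read 13.36, 14.67 and 12.54, Acp36DE read 11.05, 14.16 and 10.75, and the sex peptide gene SP read 11.38, 13.50 and 10.64. Replicate 2 was the highest and replicate 3 the lowest for each of these genes. Dup99B, a duct relative of SP, read 11.80, 14.49 and 8.85, and the duct genes Anp and Gld read 9.83, 12.84 and 6.56, and 6.40, 10.80 and 3.72. Of the bulb genes, EbpIII averaged 12.10 ± 0.32 and EbpII was at the floor in all 3 arrays. Whether these signals came from gland tissue or from the testis was not tested.

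The array that stood apart also set the least even abundant genes. Of the 10 abundant genes with the largest SD, 8 were accessory gland genes: Acp63F (1.60), Acp62F (1.57), Mst57Dc (1.53), Acp53C14b (1.45), Acp53C14a (1.39), Acp53Ea (1.39), Mst57Da (1.15) and Acp98AB (1.07). The other members were Hsc70-3, the chaperone of the endoplasmic reticulum, which read 11.78, 13.31 and 11.65, and Mst84B, which read 12.08, 13.67 and 12.94. All 10 were highest in replicate 2.

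**Figure D4:**
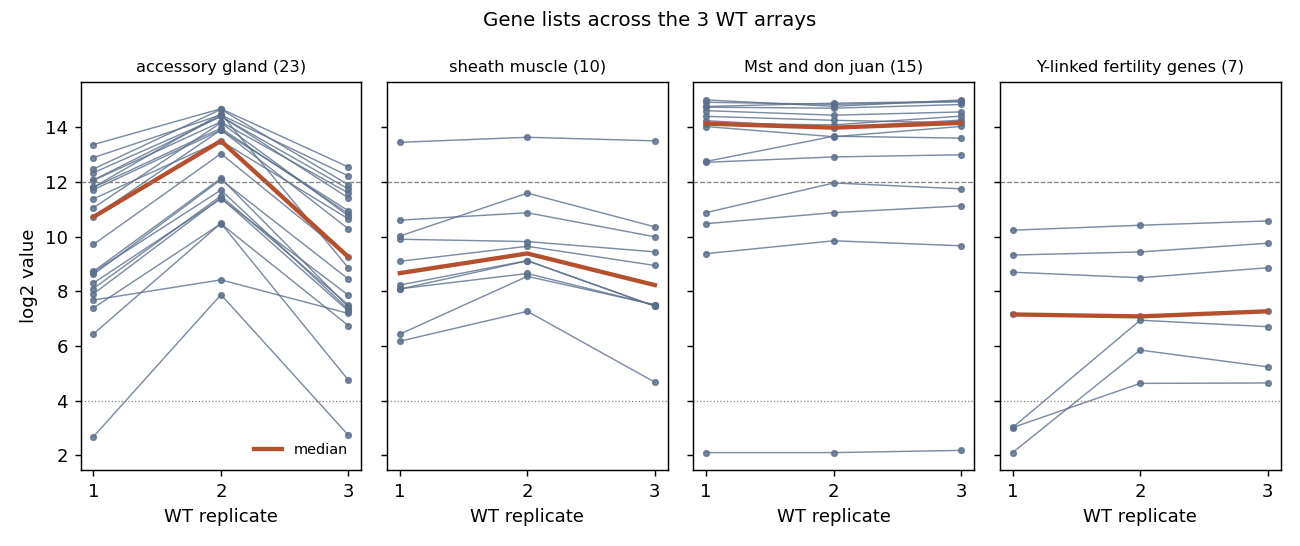
Log2 value (y axis) of each measured gene of 4 lists in WT replicates 1, 2 and 3 (x axis), with lines joining the values of a gene and a thick line through the list's median; replicates have no order. Accessory gland genes peak in replicate 2, sheath muscle genes do so slightly, the median of Mst and don juan genes is nearly level, and 3 of the 7 Y-linked genes are under the detection line of 4 (dotted) in replicate 1 only. The dashed line is 12.

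Markers of more distant tissues were mixed. All 6 fat body genes were detected, against 66.8% of all genes. Among them apolpp, the lipoprotein of the hemolymph, averaged 11.64 ± 0.28 and the larval storage protein gene Lsp2 9.32 ± 0.90. Of 7 genes chosen for hemocytes, 4 (57.1%) were detected, against 66.8% of all genes. They were the collagen genes vkg and Col4a1 at 8.57 and 8.35, which other cells also make, srp at 7.71 and Pxn at 5.11. Hml, NimC1 and He were under detection by their mean, at 3.79, 3.10 and 2.11. Of 6 neuron and photoreceptor genes, brp and nSyb averaged 8.07 and 6.72, and elav, trp, inaD and para were undetected. None of 8 gut proteases, 10 embryo patterning genes and 8 salivary glue genes was detected by its mean, against 66.8% of all genes. Of these only Jon44E, at 5.09, 2.10 and 2.10, and kni, at 3.72, 2.41 and 4.07, passed the line in an array.

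Of 13 ovary and eggshell genes, 11 were undetected, among them the yolk protein genes Yp1, Yp2 and Yp3 at 2.10, 2.25 and 2.48 and the oocyte genes osk, grk and bcd at 2.14, 2.52 and 2.23. The chorion gene Cp15 was the exception, at 9.58, 8.67 and 9.33 in the 3 arrays, and Cp18 averaged 4.57 ± 0.02. Of 10 sex determination and dosage compensation genes, 7 were detected, near the 66.8% of all genes. tra2, which acts in the male germline as well as in female somatic cells, averaged 11.45 ± 0.12, fru averaged 9.51 ± 0.21, and dsx was undetected at 2.22 ± 0.03. Of the dosage compensation genes, msl-3, mof and mle averaged 8.73, 7.60 and 7.01, and msl-1 and msl-2 were undetected at 2.89 and 2.53.

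The 3976 undetected genes held most of the large families of sensory and cuticular genes. None of 56 gustatory receptors, 2 of 56 odorant receptors and 4 of 53 ionotropic receptors were detected, against 66.8% of all genes. Among 103 cuticle proteins 13 were detected, among 30 dpr and DIP neuronal surface proteins 5, and among 22 Jonah proteases and trypsins none. Odorant-binding proteins, small secreted carriers, differed, with 20 of 47 (42.6%) detected and Obp44a and Obp99a abundant at 14.47 ± 0.12 and 13.91 ± 0.15. Of 81 cytochromes P450, 25 (30.9%) were detected and Cyp312a1 alone was abundant, at 12.24. Among dpr genes dpr17 alone was abundant, at 12.19, 12.84 and 12.58. Glutathione transferases were detected in 26 of 34 (76.5%), above the 66.8% of all genes, with GstS1, GstD1 and GstD9 abundant at 13.95, 13.60 and 12.33.

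The X chromosome held fewer abundant genes than the large autosomal arms. On the X, 109 of 1873 genes (5.82%) were abundant, against 1073 of 9949 genes (10.8%) on 2L, 2R, 3L and 3R together, whose own shares were 11.8%, 10.5%, 10.6% and 10.4%. The X share was 5.93%, 5.39% and 6.19% in replicates 1, 2 and 3, against 11.1%, 10.5% and 11.1% on the arms, and 6.14% against 11.1% without replicate 2. The arrays therefore gave the same order. Detection hardly differed, at 65.8% on the X against 67.3% on the arms. At a line of 11 the shares were 13.1% of X genes against 17.9% of arm genes, at 13 they were 1.33% against 4.95%, and at 14 they were 0.427% against 1.11%. The X share was under that of the arms at each of these lines. The median of detected genes was 8.41 on the X and 9.06 on the arms. CG1394 at 15.04, TrxT at 14.73 and lncRNA:CR32690 at 14.34 had the highest means on the X.

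On chromosome 4, a small and largely heterochromatic autosome, none of 65 genes was abundant by its mean, against 9.92% of all genes. Of the 65, 33 (50.8%) were detected, against 66.8% of all genes. Its highest genes were ATPsynbeta at 11.92, CG32006 at 11.67, apolpp at 11.64, CG11076 at 11.27 and Rad23 at 11.06. The Y carries genes needed for male fertility, several of them very long. All 7 measured Y-linked genes of the list were detected by their mean, against 66.8% of all genes. None was abundant, against 9.92% of all genes, a share at which 7 genes can hold none. Pp1-Y2 averaged 10.41 ± 0.17, ARY 9.51 ± 0.22, ORY 8.68 ± 0.18 and Ppr-Y 7.17 ± 0.09. The dynein heavy chain genes kl-2, kl-3 and kl-5 read 2.10, 5.85 and 5.23, then 3.02, 6.94 and 6.71, and 3.02, 4.63 and 4.65. These 3 genes were under detection in replicate 1 and above it in the other arrays.

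**Figure D5:**
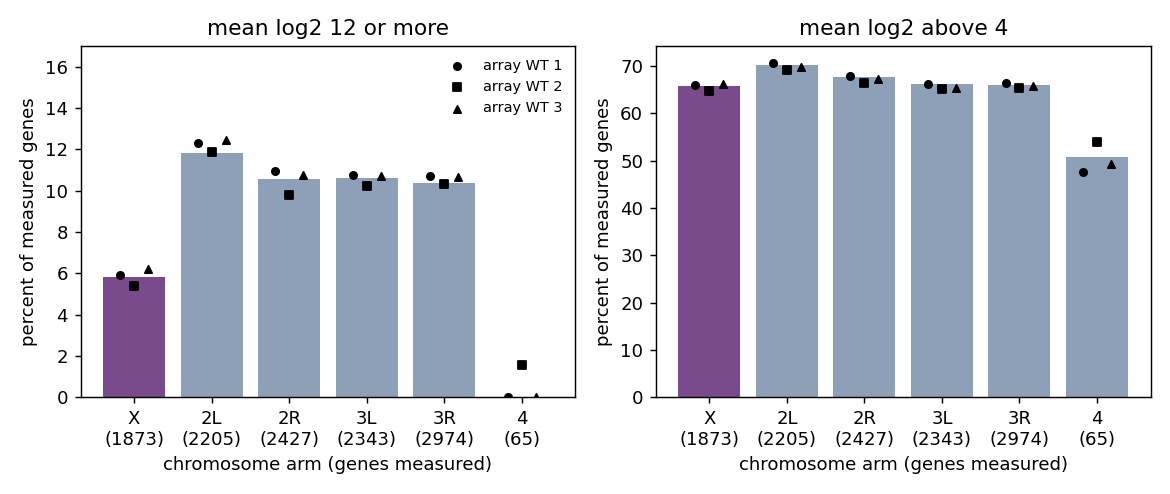
Percent of measured genes (y axes) at a WT mean of 12 or more (left) and above 4 (right) by chromosome arm (x axis, number of genes in brackets), with bars counted on the mean of the 3 arrays and symbols for each array. The X lies at 5.82% in the left panel, below each of the 4 large arms, and beside them in the right panel at 65.8%; the 1 square above 0 on chromosome 4 is ATPsynbeta in replicate 2, and the Y, with 4 genes placed, is not drawn.

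Abundant genes were sometimes neighbours. Of 1182 that could be placed in gene order, 315 (26.6%) lay directly next to another abundant gene of those measured, in 134 runs of at least 2. With 9.92% of all genes abundant, some would be neighbours in a random order too, and that share was not computed. Of the 134 runs, 32 had at least 3 genes and 3 had 5. One holds CG17944 and the Mst84Da to Mst84Dd genes on 3R, another CG30369, CG14759, CG2291, CG12126 and CG30376 on 2R, and the last Klp59C, Gpdh2, CG30192, CG13544 and Klp59D on 2R. On the X, CG1835, hydra, CG1324 and CG15452 formed a run, in which hydra, a testis gene of flies, averaged 14.08 ± 0.07. The arrangement is described only, since tandem copies and shared signal between probe sets were not separated.

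Noncoding genes were few on the array. Of 77 lncRNA genes, 28 (36.4%) were detected and 4 (5.19%) were abundant, against 66.8% and 9.92% of all genes. The abundant ones were lncRNA:CR9284 at 15.27, lncRNA:CR32690 at 14.34, lncRNA:CR33218 at 12.53 and lncRNA:CR32835 at 12.07. Of 13 antisense genes, 4 were detected and none was abundant, the highest being asRNA:CR32252 at 10.93 ± 0.11. Whether the signal of antisense genes can be told from that of their partners was not tested.

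The choice of probe set mattered for genes with several. Of the 1094 such genes, 67 had a probe set at 12 or more, and 55 of these had another under 12 and 24 another at or under 4. The meiotic regulator bol, at 13.15 on the probe set used, was at the floor of 2.10 on another, and RpS7 was at 13.01 and 2.19. Of the 660 with a probe set above 4, 427 had another that was not above it. Probe sets whose suffix marks possible matches beyond 1 gene stood for 135 abundant genes (11.4%), against 1159 of all genes (9.67%).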

How the data were processed

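The authors deposited a log2 value per probe set; per the submitters' processing notes the authors used GCRMA, which corrects background by probe base composition and normalizes arrays together, with version and chip definition not given in the sources used here. Only the 3 WT columns were read. Probe sets were paired with genes through the platform's annotation, and symbols and chromosomes were updated by gene identifier for 13543 of 13646 probe sets. A further 402 probe sets with several symbols, 4721 with none and 183 controls were left out. Means, SDs and counts at log2 12 and 4 were computed with Python 3.11.15, numpy 2.4.6 and pandas 2.3.3, drawn with matplotlib 3.10.9 and checked on simulated data. The 3 arrays limit the precision; no test was made.

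The members and gene lists were chosen with earlier results of these data known, and support nothing independently. The text names genes at 12 or more, list and paralog members, those beside each threshold, the 10 abundant genes of largest SD and the highest of chromosomes 4 and Y. Other thresholds, probe set choices, quantile normalization and leaving out arrays were tried. Promoter sequences were not used here.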

Additional observations from a re-analysis of the deposited data

Results flagged for a closer look

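Signal appeared in probe sets outside the genes described above. Of 4721 probe sets paired with no gene symbol, 116 (2.46%) had a WT mean of 12 or more and 711 (15.1%) were above 4. Of 402 probe sets paired with several symbols, 62 (15.4%) had a WT mean of 12 or more and 277 (68.9%) were above 4. These transcripts belong to no count in the text. With 3 arrays, single values were not tested as outliers.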

How the results depend on the processing

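The number of abundant genes moved with the threshold, to 2039 at log2 11 and 520 at 13 (1189 at 12), and so did the X-linked count, to 245 and 25 (109), and the count over all gene lists at 13, 44 (68). It stayed within 1.5 times when each array had to pass (1040), with the lowest or median probe set of a gene (1134 and 1141), after quantile normalization (1188), without the accessory gland list (1181) and, in an alternative chosen after seeing the data, without probe sets whose suffix marks possible matches beyond 1 gene (1054). Leaving out each array in turn gave 1183 to 1226 abundant and 7968 to 8010 detected genes, 68 to 73 and 202 to 206 list members, and 102 to 115 and 1228 to 1238 X-linked genes. Detected genes numbered 8690 above 3, 7358 above 5, 7633 in each array and 8306 in at least 1. Among single lists, 32 of 567 values moved by more than 1.5 times; accessory gland genes at 12 or more were 8, and 4 without replicate 2, and Y-linked genes above 4 were 7, and 4 in each array. The cause of these shifts was not tested. No paired analysis was possible because the results come from no test and only 1 group was used. A planned description of promoter motifs was not run, since no promoter sequences were used. Array signal at the floor gives no order among low genes.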

Other observations

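Genes that 1 WT array read at least 1.5 log2 units apart from both others were collected, and the genes named here were chosen after their values were seen. Replicate 2 was above both others for 238 genes, which included 21 of 23 accessory gland genes. Among the rest, the serpin gene Spn77Bc read 9.82, 13.71 and 5.84, and the odorant-binding protein gene Obp51a read 10.35, 13.98 and 6.88. Replicate 2 was below both others for 101 genes, of which none was abundant.

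Replicate 1 was above both others for 90 genes, none of them abundant. Acbp5, of the acyl-CoA-binding protein family, read 10.42, 2.10 and 2.10, Nplp3, a neuropeptide-like precursor, read 9.47, 2.10 and 3.54, and Mur18B, of the mucin-related family, read 9.03, 2.26 and 4.27. These genes were near the floor in replicate 2. The set of 90, out of all 11981 genes, held no gene of the accessory gland list. Counted by gene name, it held 4 of 103 cuticle proteins and 3 of 22 Jonah or trypsin genes. That count leaves out the adult cuticle protein gene Acp65Aa, which read 5.17, 2.10 and 2.10. Replicate 1 was below both others for 26 genes, among them the Y-linked kl-2, kl-3 and kl-5. Replicate 3 was above both others for 10 genes and below both for 23, with 2 accessory gland genes among those below.

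Some families of the general body were detected in part in testes. Of 9 nicotinic receptor subunits 1 was detected, at 4.42. Among cuticle genes Twdlalpha read 10.90, 11.23 and 11.26 and Cpr51A read 10.21, 9.86 and 10.01, a spread of under 0.5 between arrays, while the median of 103 cuticle proteins was 2.18.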
